A study of Mus musculus with 16 samples.

Results

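The Ube2 genes encode the ubiquitin-conjugating enzymes (E2) and their close relatives. All symbols in the deposited table that begin with Ube2 were taken, apart from 1 symbol left out by the rule and names that end in -ps or Rik, which gave 36 of 23410 genes. The cells were G1E-ER4, a mouse erythroid progenitor line derived from embryonic stem cells without a working Gata1 gene, which carries GATA1 fused to the ligand-binding domain of the estrogen receptor. Beta-estradiol brings the fusion protein into the nucleus, where it acts on GATA1 target genes, and the design varies the dose of that signal. The 8 doses of beta-estradiol were 0, 12.5, 25, 50, 75, 100, 150 and 200 nM, each with 2 replicates, which made 16 libraries. Every group, the 0 nM control included, therefore carries the fusion and lacks native GATA1, and all were grown with serum, stem cell factor and erythropoietin. It is 1 cell line, so the p-values describe the spread between libraries of this line, which may be technical because no label says that replicates came from separate cultures. Neither the length of exposure nor a vehicle is given in the sources used here. In such bulk samples, fewer cells of a type and less RNA per cell cannot be told apart.

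Ubiquitin is attached to proteins by a relay. An activating enzyme (E1) loads ubiquitin onto the catalytic cysteine of an E2, and the E2 passes it, usually with a ligase (E3) that binds the substrate, to a lysine of the target. The E2 decides much of the outcome, such as which ubiquitin-like protein is carried and which linkage a chain has. During red cell maturation most non-globin proteins and all organelles are removed, and ubiquitin conjugation is an established part of that remodelling.

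The shallowest library (replicate 2 of 150 nM) held 9393156 counts and the deepest (replicate 2 of 12.5 nM) 15802510. Levels are given as CPM (counts relative to the library total) after TMM scaling, as mean ± SD with n = 2 at each dose unless values of single libraries are given. Of 9 listed erythroid markers 8 were in the table, and these 8 were all higher at 200 nM, with summed levels of 25769 to 26250 CPM at 200 nM against 1482 to 1571 CPM at 0 nM. Among 6 megakaryocyte markers 4 were higher at 200 nM, with sums of 432 to 445 CPM at 200 nM against 10.0 to 11.3 CPM at 0 nM and Vwf at 0. Sums stayed under 3 CPM for 5 mast cell and basophil markers (Mcpt8, Tpsb2 and Fcer1a at 0), 6 granulocyte and macrophage markers (Mpo, Lyz2 and Itgam at 0) and 3 lymphocyte markers (Cd3e at 0), and all 4 fibroblast and endothelial markers were at 0 in the libraries of both doses. The part of cells with megakaryocyte transcripts in the Ube2 levels was not tested.

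Of the 36 Ube2 genes, 30 passed the filter on low counts, among 10080 genes tested. The other 6, Ube2d1, Ube2e2, Ube2ql1, Ube2u, Ube2dnl1 and Ube2dnl2, had 0 counts in every library. At this depth a count of 0 allows up to 3 counts, or 0.190 to 0.319 CPM of the unscaled library total depending on the library, with counting error alone considered. These 6 comprise 3 UBC4/5 symbols, 1 of the Ube2e class and 2 atypical enzymes.

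At 200 nM against 0 nM, 15 Ube2 genes were higher, 10 were lower and 5 were not called by edgeR's quasi-likelihood test at a Benjamini-Hochberg adjusted p under 0.05. The background was high: 40.5% of all tested genes were higher and 39.5% lower, 80.0% together, so the 83.3% of Ube2 genes called is near the background. The median log2 fold change was 0.28 for the 30 Ube2 genes and 0.02 for all tested genes. A change of at least 2-fold was called for 7 Ube2 genes upward, where the background was 19.7%, and for 2 downward, where it was 17.4%. The 200 nM and 0 nM libraries did not overlap for 28 of the 30 genes, against 89.4% of all tested genes. Directions depend on the scaling of the libraries. When only library size was used, the median of all tested genes moved to -0.36 and the split became 12 Ube2 genes higher and 13 lower, with Ube2f, Ube2d2a, Ube2z and Ube2q1 changing sign.

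**Figure D1:**
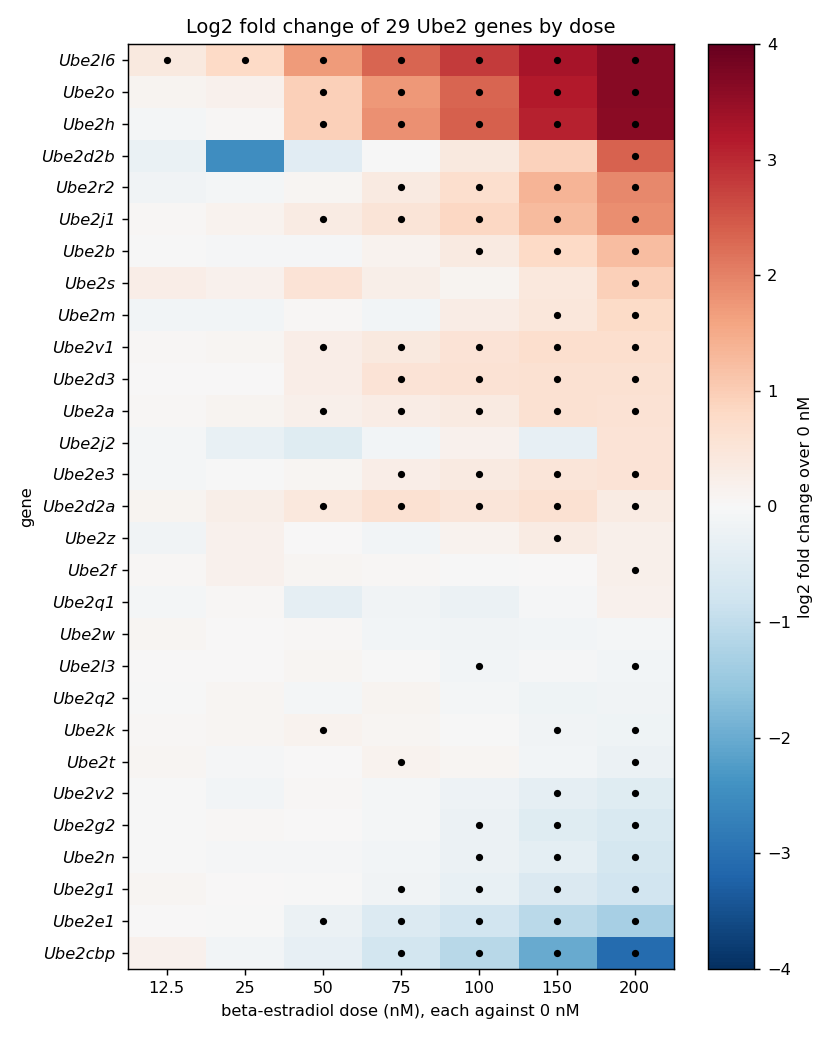
Log2 fold change of 29 tested Ube2 genes (down the page, sorted by the value at 200 nM) at each dose against 0 nM (across), with black dots where the edgeR adjusted p was under 0.05. Ube2l6, Ube2o and Ube2h stand at the top with 3.62 to 3.64 at 200 nM and Ube2cbp at the bottom with -3.09. The dark cell of Ube2d2b at 25 nM rests on counts close to 0 and has no dot.

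Ube2l6, Ube2o and Ube2h stood apart from the other conjugating enzymes, each between 12.3-fold and 12.5-fold higher at 200 nM than at 0 nM. Ube2l6 (chromosome 2, 84798828 to 84810335, plus strand, GRCm38) encodes UBCH8, the principal conjugating enzyme for ISG15 in human cells and also able to carry ubiquitin. Its level in the replicate pairs was 37.5 and 38.7 CPM at 0 nM, 50.0 and 49.3 CPM at 12.5 nM, 64.0 and 69.3 CPM at 25 nM, 128 and 119 CPM at 50 nM, 196 and 190.3 CPM at 75 nM, 271 and 257 CPM at 100 nM, 376 and 370.1 CPM at 150 nM, and 475 and 477 CPM at 200 nM. Each dose lay above the one before in both libraries, with no overlap between neighbouring doses. The mean was 476 ± 1.35 CPM at 200 nM, against 38.1 ± 0.880 CPM at 0 nM, a log2 fold change of 3.64 ± 0.05 (adjusted p = 1.21e-46). Ube2l6 was the only Ube2 gene called at 12.5 nM (log2 fold change 0.38 ± 0.06, adjusted p = 6.41e-05), where 0.278% of all tested genes were higher, and at 25 nM (0.81 ± 0.06, adjusted p = 5.58e-15), where 3.0% were higher. No Ube2 gene was lower at 12.5 or 25 nM, where the backgrounds were 0.228% and 1.02%. That count of 0 was also 0 at an unadjusted p under 0.05 and 0 with DESeq2.

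Ube2o (chromosome 11, 116537740 to 116581447, minus strand) encodes a large hybrid enzyme that joins conjugating and ligase activity in 1 chain, and in mouse reticulocytes it marks ribosomal proteins and unassembled alpha-globin for removal. Its libraries had 16.9 and 19.0 CPM at 0 nM, 19.6 and 19.2 CPM at 12.5 nM, 20.2 and 20.1 CPM at 25 nM, 35.4 and 34.5 CPM at 50 nM, 59.1 and 59.5 CPM at 75 nM, 93.6 and 86.3 CPM at 100 nM, 165 and 160.4 CPM at 150 nM, and 219 and 224 CPM at 200 nM. The values up to 25 nM lay within 4 CPM of each other, and from 50 nM on each dose stood clear of the one below. The mean was 222 ± 3.47 CPM at 200 nM, against 18.0 ± 1.45 CPM at 0 nM (log2 fold change 3.63 ± 0.07, adjusted p = 3.52e-41).

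Ube2h (chromosome 6, 30211289 to 30304539, minus strand) encodes the conjugating enzyme that works with the CTLH ligase, a multi-subunit complex linked to erythroid maturation. The series ran 10.98 and 11.9 CPM at 0 nM, 10.1 and 11.7 CPM at 12.5 nM, 11.4 and 12.0 CPM at 25 nM, 21.6 and 22.9 CPM at 50 nM, 41.7 and 38.6 CPM at 75 nM, 59.0 and 61.0 CPM at 100 nM, 99.2 and 92.5 CPM at 150 nM, and 141 and 139.6 CPM at 200 nM. The 3 lowest doses overlapped and every later dose was above all earlier ones. The mean was 140.4 ± 1.07 CPM at 200 nM, against 11.4 ± 0.620 CPM at 0 nM (3.62 ± 0.08, adjusted p = 2.12e-37).

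**Figure D2:**
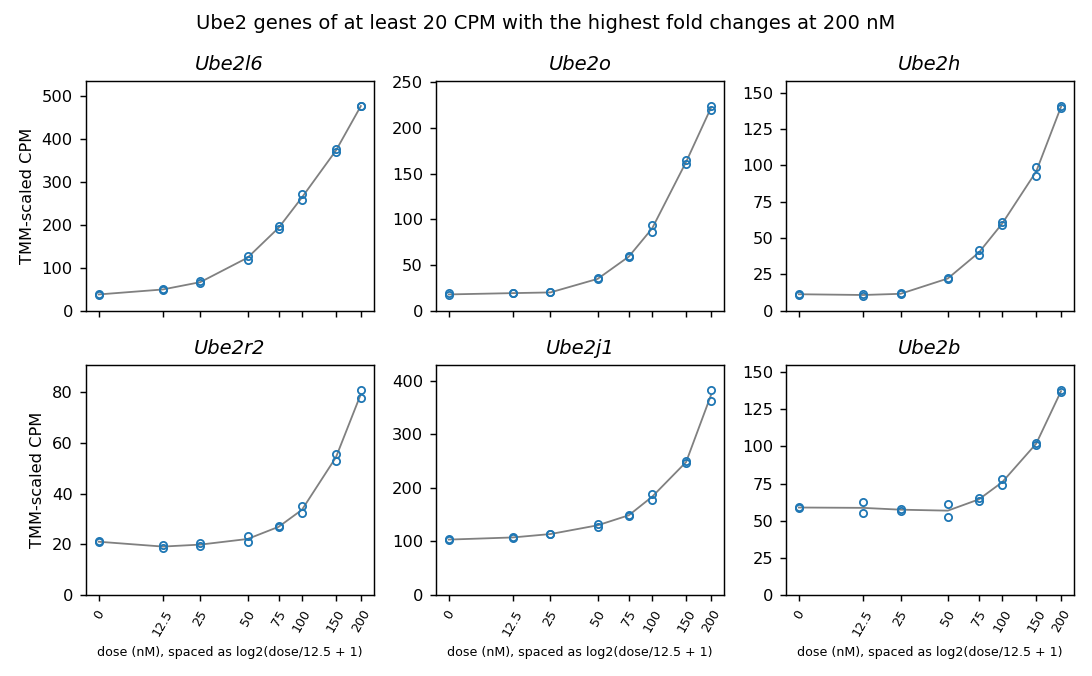
TMM-scaled CPM (vertical, each panel from 0) of the 6 Ube2 genes with at least 20 CPM and the highest fold changes against dose (horizontal, spaced as log2(dose/12.5 + 1)); open circles are single libraries and the line joins the means of 2. Ube2l6 leaves its 0 nM level at 12.5 nM, whereas Ube2r2 and Ube2b stay near theirs up to 50 nM and reach 81.0 and 138 CPM in their highest 200 nM libraries.

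The upstream sequence of these genes is shown because GATA1 binds motifs with a GATA core, and because Ube2l6 and its nearest relative Ube2l3 behaved so differently. The 250 bases before the RefSeq transcription start (GRCm38.p6, printed 5′ to 3′ on the gene's strand) were searched for AGATAA and TGATAA on both strands. The 2 motifs differ in their opening letter, so no match counts under both, and a match is printed in capitals. The window of Ube2l6 is chr2:84798578-84798827 on the plus strand, that of Ube2l3 is chr16:17201493-17201742 on the minus strand, and that of the outer start of Ube2h is chr6:30304540-30304789 on the minus strand. The Ube2l3 window lies inside the annotated gene (17152013 to 17202649), and the bases before the outer end of that gene were not searched. Ube2h has a further start inside the gene with the window chr6:30243804-30244053, where AGATAA begins 204 bases before the start.
Ube2l6: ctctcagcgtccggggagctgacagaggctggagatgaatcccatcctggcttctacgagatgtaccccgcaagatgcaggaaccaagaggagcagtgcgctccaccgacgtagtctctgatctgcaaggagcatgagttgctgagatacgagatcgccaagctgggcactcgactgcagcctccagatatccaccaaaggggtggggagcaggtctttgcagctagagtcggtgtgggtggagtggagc
Ube2l3: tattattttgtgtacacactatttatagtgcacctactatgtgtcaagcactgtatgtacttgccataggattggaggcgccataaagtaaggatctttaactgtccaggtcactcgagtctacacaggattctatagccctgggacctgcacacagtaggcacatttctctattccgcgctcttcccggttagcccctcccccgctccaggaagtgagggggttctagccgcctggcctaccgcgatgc
Ube2h outer start: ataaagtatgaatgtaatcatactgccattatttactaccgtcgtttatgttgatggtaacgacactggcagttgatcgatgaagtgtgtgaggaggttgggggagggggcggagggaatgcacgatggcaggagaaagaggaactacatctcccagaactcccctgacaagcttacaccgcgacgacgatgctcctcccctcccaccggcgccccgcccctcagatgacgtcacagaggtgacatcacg
Ube2h inner start: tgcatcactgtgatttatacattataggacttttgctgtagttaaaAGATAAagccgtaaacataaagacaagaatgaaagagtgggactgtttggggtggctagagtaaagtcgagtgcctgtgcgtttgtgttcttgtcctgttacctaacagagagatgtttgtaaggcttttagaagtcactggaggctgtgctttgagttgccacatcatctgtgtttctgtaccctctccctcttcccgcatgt
The inner Ube2h window held the single match among the Ube2 genes found in the table. RefSeq had windows for 29 of the 36 genes, 40 windows in all, and 1 gene of 29 (3.4%) had a match, against 5092 of 27025 genes (18.8%) in the whole table. By window the shares were 2.5% for the Ube2 genes and 16.6% for all 32851 windows. Ube2 windows were also richer in G and C, with a median GC content of 68.8% and 23.5 CpG dinucleotides, against 52.4% and 6 over all windows. The windows of Ube2l6, outer Ube2h and Ube2l3 had 58.4%, 53.6% and 50.8% GC, below the family's median. A match describes letters in these windows only.

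Next in size among members with at least 20 CPM at either dose were Ube2r2, Ube2j1 and Ube2b, higher by 2.33-fold to 3.77-fold at 200 nM. Ube2r2 (chromosome 4, 41135743 to 41193380, plus strand) encodes a CDC34-type enzyme that extends lysine 48 chains on substrates of cullin ligases. Its libraries had 21.3 and 20.7 CPM at 0 nM, 18.4 and 19.9 CPM at 12.5 nM, 19.4 and 20.4 CPM at 25 nM, 21.1 and 23.2 CPM at 50 nM, 26.7 and 27.2 CPM at 75 nM, 35.1 and 32.2 CPM at 100 nM, 55.8 and 53.1 CPM at 150 nM, and 81.0 and 77.6 CPM at 200 nM. The first 4 doses were within 5 CPM of each other and the rise began at 75 nM. At 200 nM the mean was 79.3 ± 2.39 CPM, against 21.0 ± 0.422 CPM at 0 nM (1.91 ± 0.08, adjusted p = 5.61e-26).

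Ube2j1 (chromosome 4, 33031416 to 33052363, plus strand) encodes a tail-anchored enzyme of the endoplasmic reticulum that acts in the degradation of misfolded proteins. It had 104 and 103 CPM at 0 nM, 108 and 107 CPM at 12.5 nM, 113 and 115 CPM at 25 nM, 133 and 128 CPM at 50 nM, 150.0 and 148 CPM at 75 nM, 178 and 189 CPM at 100 nM, 251 and 246 CPM at 150 nM, and 363 and 383 CPM at 200 nM. No pair of neighbouring doses overlapped, although the difference was first called at 50 nM. The mean was 373 ± 14.3 CPM at 200 nM, against 103 ± 0.649 CPM at 0 nM (1.85 ± 0.04, adjusted p = 7.34e-37).

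Ube2b (chromosome 11, 51985497 to 52000762, minus strand) encodes RAD6B, which with its ligases marks histone H2B and PCNA. Levels were 59.2 and 58.6 CPM at 0 nM, 62.3 and 55.0 CPM at 12.5 nM, 58.1 and 56.8 CPM at 25 nM, 52.6 and 61.0 CPM at 50 nM, 63.3 and 65.5 CPM at 75 nM, 77.8 and 74.1 CPM at 100 nM, 101 and 103 CPM at 150 nM, and 136 and 138 CPM at 200 nM. Up to 50 nM the libraries of different doses were mixed, and from 75 nM they separated. The mean was 137 ± 1.24 CPM at 200 nM, against 58.9 ± 0.382 CPM at 0 nM (1.22 ± 0.06, adjusted p = 5.67e-23). Ube2a, its paralog RAD6A, was higher too, at 83.5 ± 3.63 CPM at 200 nM and 56.5 ± 3.90 CPM at 0 nM (0.56 ± 0.06, adjusted p = 4.82e-11).

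The clearest falls among well-expressed members were those of Ube2e1, Ube2g1, Ube2n, Ube2g2 and Ube2v2. Ube2e1 (chromosome 14, 18282722 to 18331859, minus strand) belongs to a class with an N-terminal extension before the conjugating fold. Its libraries had 39.2 and 39.0 CPM at 0 nM, 40.0 and 39.0 CPM at 12.5 nM, 38.0 and 39.1 CPM at 25 nM, 29.7 and 36.0 CPM at 50 nM, 29.0 and 25.0 CPM at 75 nM, 23.4 and 22.7 CPM at 100 nM, 18.8 and 18.4 CPM at 150 nM, and 15.9 and 15.3 CPM at 200 nM. It was flat up to 25 nM and every dose from 50 nM lay below the ones before. The mean was 15.6 ± 0.487 CPM at 200 nM, against 39.1 ± 0.156 CPM at 0 nM (-1.33 ± 0.10, adjusted p = 2.44e-16). Exons of the opposite-strand gene Nkiras1 cover 16.11% of its exon bases, and the libraries keep no strand. Nkiras1 itself had 5.62 and 3.64 CPM at 200 nM and 4.60 and 4.35 CPM at 0 nM, and its part in the Ube2e1 values was not tested.

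Ube2g1 (chromosome 11, 72607283 to 72686481, plus strand), which extends lysine 48 chains for cullin ligases, had 98.5 and 95.9 CPM at 0 nM, 108 and 97.5 CPM at 12.5 nM, 102 and 93.6 CPM at 25 nM, 93.9 and 96.4 CPM at 50 nM, 89.8 and 86.4 CPM at 75 nM, 78.0 and 80.9 CPM at 100 nM, 67.3 and 63.4 CPM at 150 nM, and 53.6 and 60.2 CPM at 200 nM. The decline began after 50 nM. Means were 56.9 ± 4.62 CPM at 200 nM and 97.2 ± 1.83 CPM at 0 nM (-0.77 ± 0.06, adjusted p = 3.84e-15).

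Ube2n (chromosome 10, 95515145 to 95545657, plus strand) encodes UBC13, the enzyme that builds lysine 63 chains. It had 71.6 and 62.9 CPM at 0 nM, 66.5 and 66.8 CPM at 12.5 nM, 66.4 and 64.4 CPM at 25 nM, 67.5 and 62.4 CPM at 50 nM, 62.5 and 63.4 CPM at 75 nM, 56.9 and 56.7 CPM at 100 nM, 49.9 and 52.1 CPM at 150 nM, and 38.8 and 43.4 CPM at 200 nM. Up to 75 nM all values lay between 62.4 and 71.6 CPM, and those from 100 nM were below this range. Ube2n averaged 41.1 ± 3.25 CPM at 200 nM and 67.2 ± 6.15 CPM at 0 nM (-0.71 ± 0.07, adjusted p = 2.53e-12).

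UBC13 needs a partner without an active cysteine, and the 2 genes for such partners moved in opposite directions. Ube2v2 (chromosome 16, 15552077 to 15595773, minus strand), which encodes MMS2, had 27.3 and 28.2 CPM at 0 nM, 30.7 and 24.0 CPM at 12.5 nM, 24.3 and 26.7 CPM at 25 nM, 25.4 and 31.5 CPM at 50 nM, 26.4 and 26.2 CPM at 75 nM, 22.8 and 25.0 CPM at 100 nM, 20.7 and 22.4 CPM at 150 nM, and 17.6 and 21.6 CPM at 200 nM. Replicates of Ube2v2 differed by up to 7 CPM below 75 nM, and only the 150 and 200 nM contrasts were called. Its mean was 19.6 ± 2.83 CPM at 200 nM, against 27.8 ± 0.677 CPM at 0 nM (-0.50 ± 0.12, adjusted p = 0.00024). Ube2v1, which encodes UEV1A, was higher, with 118 ± 1.00 CPM at 200 nM and 74.0 ± 2.02 CPM at 0 nM (0.67 ± 0.05, adjusted p = 5.63e-16). Its symbol is uncertain because the same-strand gene model Gm20431 shares 61.48% of its exon bases.

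Ube2g2 (chromosome 10, 77622275 to 77645993, plus strand), the soluble enzyme of endoplasmic reticulum associated degradation, had 152 and 155 CPM at 0 nM, 147 and 159 CPM at 12.5 nM, 159 and 162 CPM at 25 nM, 150.0 and 159.7 CPM at 50 nM, 149.9 and 144 CPM at 75 nM, 134 and 129.7 CPM at 100 nM, 114 and 104 CPM at 150 nM, and 100.4 and 98.9 CPM at 200 nM. It fell from 100 nM on, to a mean of 99.7 ± 1.09 CPM at 200 nM, against 154 ± 1.92 CPM at 0 nM (-0.62 ± 0.05, adjusted p = 1.69e-15). The third enzyme of that compartment, Ube2j2, was barely detected at 1.38 ± 0.519 CPM at 200 nM and 0.935 ± 0.282 CPM at 0 nM and was not called (0.55 ± 0.44, adjusted p = 0.252).

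Both carriers of NEDD8, the ubiquitin-like protein that activates cullin ligases, were higher at 200 nM. Ube2m had 17.3 ± 1.03 CPM at 200 nM and 10.2 ± 1.08 CPM at 0 nM (0.76 ± 0.14, adjusted p = 2.1e-06). Ube2f had 66.6 ± 2.57 CPM at 200 nM and 58.3 ± 3.39 CPM at 0 nM (0.19 ± 0.07, adjusted p = 0.00807), a call that turned to -0.19 with library size alone and was lost without replicate 1 of 0 nM (adjusted p = 0.186) or of 200 nM (adjusted p = 0.093).

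**Figure D3:**
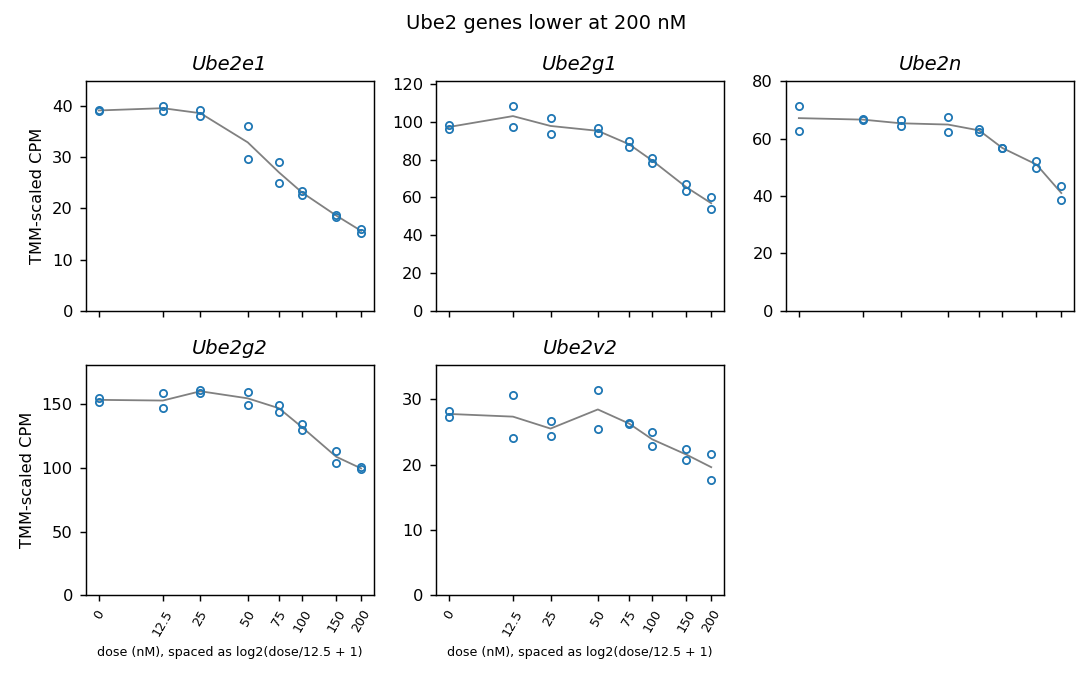
TMM-scaled CPM (vertical, each panel from 0) of 5 Ube2 genes with at least 20 CPM and low fold changes against dose (horizontal, spaced as log2(dose/12.5 + 1)); open circles are single libraries and the line joins the means of 2. Ube2e1 bends down from 50 nM and reaches 15.3 CPM, whereas Ube2g2 stays level up to 75 nM before it drops.

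The lowest fold change of the family belonged to Ube2cbp (chromosome 9, 86307306 to 86464950, minus strand). RefSeq lists it also as Ube3d, a ligase that binds conjugating enzymes rather than an E2, so it shares the name more than the function. Its libraries held 125 and 143 counts at 0 nM, 143 and 168 counts at 12.5 nM, 123 and 118 counts at 25 nM, 105 and 108 counts at 50 nM, 67 and 72 counts at 75 nM, 50 and 57 counts at 100 nM, 26 and 18 counts at 150 nM, and 13 and 9 counts at 200 nM. Counts fell at every dose from 50 nM, and no 200 nM value overlapped another dose. The scaled level was 0.980 ± 0.308 CPM at 200 nM, against 8.34 ± 0.955 CPM at 0 nM (-3.09 ± 0.26, adjusted p = 9.01e-15).

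The UBC4/5 class supplies ubiquitin to a broad range of ligases, and of its 6 symbols Ube2d3 and Ube2d2a had enough counts in all libraries for a comparison, both higher at 200 nM. Ube2d3 (chromosome 3, 135438149 to 135468198, plus strand) was the most abundant of them at 466 ± 61.3 CPM at 200 nM and 305 ± 14.4 CPM at 0 nM (0.61 ± 0.10, adjusted p = 0.000355). With library size alone its change was 0.23 and was not called (adjusted p = 0.0654). Ube2d2a had 31.2 ± 1.77 CPM at 200 nM and 24.7 ± 4.40 CPM at 0 nM (0.34 ± 0.10, adjusted p = 0.00266). That call turned to -0.04 with library size alone and was lost without replicate 2 of 0 nM (adjusted p = 0.219) or of 200 nM (adjusted p = 0.0575). Its fold changes at lower doses were 0.43 at 50 nM, then 0.62, 0.49 and 0.60 at 75, 100 and 150 nM, all called, so the value at 200 nM was below the 4 before it. Ube2d2b passed the filter only through the 200 nM libraries, with 13 and 13 counts at 200 nM against 2 and 5 at 0 nM. A gene that enters in this way has to differ, so its call is not read as a result, although it is among the 15 higher genes and the 7 higher at least 2-fold. Its annotated coding sequence is 92.7% identical to that of Ube2d2a, so its counts are uncertain.

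Among the remaining members most differences were small. Ube2e3, the other tested enzyme of the Ube2e class, was higher with 111 ± 5.97 CPM at 200 nM and 76.2 ± 0.486 CPM at 0 nM (0.55 ± 0.06, adjusted p = 5.13e-11). Ube2s, which extends lysine 11 chains for the anaphase promoting complex, had 6.03 ± 0.856 CPM at 200 nM and 3.07 ± 0.335 CPM at 0 nM (0.96 ± 0.23, adjusted p = 0.000167). It shares 3.56% of its exon bases with the abundant opposite-strand gene Rpl28, which had 610.5 and 621 CPM at 200 nM and 372 and 362 CPM at 0 nM. The part of those reads in the Ube2s value was not tested.

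Ube2t, the enzyme that marks FANCD2 and FANCI in the Fanconi anaemia pathway, was 51.5 ± 0.324 CPM at 200 nM, against 60.7 ± 1.5 CPM at 0 nM (-0.24 ± 0.07, adjusted p = 0.00117), yet at 75 nM it was higher than at 0 nM (0.14 ± 0.06, adjusted p = 0.0481). Ube2k, which builds lysine 48 chains, likewise was higher at 50 nM (0.13 ± 0.04, adjusted p = 0.0159) and lower at 200 nM, with 129.5 ± 5.44 CPM at 200 nM and 145 ± 0.189 CPM at 0 nM (-0.16 ± 0.05, adjusted p = 0.00169; 0.0505 without replicate 1 of 200 nM). A peak needed a dose above 0 nM and above 200 nM, with the weaker of those contrasts still under 0.05 after adjustment over all tested genes. Neither gene passed, and that rule found 0 Ube2 genes, where 2.90% of all tested genes peaked, and the mirror rule for a dip found 0, where 2.05% did. At an unadjusted p under 0.05 there were 3 peaks (Ube2t, Ube2d2a and Ube2k) and 1 dip (Ube2q1), and DESeq2 gave 0 of each. Ube2l3, which serves HECT and RBR ligases such as parkin, was 138 ± 4.77 CPM at 200 nM, against 149 ± 3.59 CPM at 0 nM (-0.11 ± 0.05, adjusted p = 0.0274). Without replicate 1 of 0 nM or of 200 nM that call was lost (adjusted p = 0.111 and 0.213). The opposite-strand gene Ydjc, which overlaps 28.59% of the Ube2l3 exon bases, had 4.15 and 5.25 CPM at 200 nM and 63.6 and 59.9 CPM at 0 nM, and its part in the small Ube2l3 difference was not tested.

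The 5 tested genes not called at 200 nM were Ube2j2 and 4 atypical enzymes. Ube2w, which modifies the N-terminus of proteins, had 42.9 ± 1.64 CPM at 200 nM and 45.1 ± 0.0941 CPM at 0 nM (-0.07 ± 0.10, adjusted p = 0.524). Ube2z, which is loaded by the alternative E1 UBA6, had 17.5 ± 0.226 CPM at 200 nM and 15.1 ± 1.99 CPM at 0 nM (0.21 ± 0.13, adjusted p = 0.129) and was called higher at 150 nM alone. Its libraries at 150 nM, with 21.5 and 15.6 CPM, overlapped those at 0 nM, with 16.5 and 13.7 CPM. Ube2q1 (0.18 ± 0.16, adjusted p = 0.297) and Ube2q2 (-0.13 ± 0.12, adjusted p = 0.311) have long N-terminal regions before the conjugating fold. Under library size alone Ube2w and Ube2q2 were called lower (-0.45 and -0.51), while Ube2z and Ube2q1 had values of -0.17 and -0.20. Within the group of hybrid and atypical enzymes, Ube2o was thus the single gene called at 200 nM of 5 tested.

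The number of Ube2 genes called grew with dose, as did the background. At 50 nM 8 were higher and 1 lower (background 18.8% and 14.7%), at 75 nM 11 and 3 (29.0% and 26.9%), at 100 nM 11 and 7 (34.1% and 32.5%), and at 150 nM 13 and 8 (37.7% and 36.6%). The 8 genes higher at 50 nM were Ube2l6, Ube2o, Ube2h, Ube2j1, Ube2v1, Ube2d2a, Ube2a and Ube2k, and the 1 lower gene was Ube2e1. Without replicate 2 of 0 nM the count of higher genes at 50 nM was 5, and the single lower call was lost without either 0 nM library or without replicate 1 of 50 nM. With library size alone 7 genes were lower at 75 nM in place of 3, and 13 at 100 nM in place of 7. Over all doses together the F test called 26 of 30, against 86.3% of all tested genes.

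The dose at which a gene crossed the midpoint, on the log2 scale, between its 0 nM and 200 nM levels was estimated for members that changed at least 2-fold, Ube2d2b apart because of its low counts. The estimate was 54.9 nM for Ube2l6 (52.4 and 57.1 nM from replicates 1 and 2), 74.5 nM for Ube2h (72.1 and 77.9 nM) and 78.8 nM for Ube2o (76.8 and 81.3 nM). Ube2e1 followed at 88.5 nM (91.8 and 81.1 nM), then Ube2j1 at 111 nM (113 and 109.7 nM), Ube2r2 at 118 nM (114 and 121 nM), Ube2cbp at 120.3 nM (109.5 and 129.5 nM) and Ube2b at 127 nM (125 and 127 nM). The estimates from single replicates overlapped between Ube2h and Ube2o, between Ube2o and Ube2e1, and between Ube2cbp and each of Ube2j1, Ube2r2 and Ube2b, so the order within these pairs is not resolved. The median over all genes changed at least 2-fold was 84.9 nM for 1986 higher genes and 106 nM for 1754 lower ones. On the linear CPM scale the midpoints were later for the genes that rose, at 97.6 nM for Ube2l6, 122 nM for Ube2h and 142 nM for both Ube2j1 and Ube2b. They were earlier for the genes that fell, at 73.1 nM for Ube2e1 and 76.0 nM for Ube2cbp, so on that scale both of these came before Ube2l6.

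Related genes were compared with each other as the ratio of their counts within a library, which does not depend on how libraries are scaled. Because the counts are not divided by length, only the change of a ratio with dose can be read. Of 12 listed pairs 10 could be tested, with a two-sided permutation test of the slope on log2(dose/12.5 + 1) over 16 libraries and Benjamini-Hochberg adjustment over those 10, and 8 were called. Ube2l6 over Ube2l3 changed most: the ratio was 3.46 ± 0.11 at 200 nM and 0.257 ± 0.012 at 0 nM (slope 0.99, permutation p = 1e-05, the smallest that 100000 permutations can give, adjusted p = 3.33e-05). The coding sequences of this pair are 60.4% identical. Ube2e1 over Ube2e3 was 0.141 ± 0.012 at 200 nM and 0.513 ± 0.005 at 0 nM (slope -0.50, permutation p = 1e-05, adjusted p = 3.33e-05), so the 2 expressed enzymes of that class diverged. Ube2v1 over Ube2v2 was 6.07 ± 0.82 at 200 nM and 2.66 ± 0.14 at 0 nM (slope 0.30, permutation p = 1e-05, adjusted p = 3.33e-05).

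Ube2r2 over Cdc34, the founding gene of its type, was 0.954 ± 0.067 at 200 nM and 0.294 ± 0.0035 at 0 nM (slope 0.41, permutation p = 0.00014, adjusted p = 0.00035). Ube2j1 over Ube2j2 was 282 ± 113 at 200 nM and 112 ± 33 at 0 nM (slope 0.34, permutation p = 0.00046, adjusted p = 0.00092), with 7 to 19 Ube2j2 counts in a library behind the wide SD. Ube2f over Ube2m, the 2 NEDD8 carriers, was 3.85 ± 0.38 at 200 nM and 5.71 ± 0.27 at 0 nM (slope -0.16, permutation p = 0.00266, adjusted p = 0.00443). The pairs Ube2g1 over Ube2g2 (slope -0.04, permutation p = 0.0219, adjusted p = 0.0313) and Ube2a over Ube2b (slope -0.11, permutation p = 0.0324, adjusted p = 0.0405) were near the threshold. Leaving out either of 2 single libraries (replicate 1 of 0 nM or of 200 nM) ended the call of the first, and leaving out either library of 25, 150 or 200 nM or replicate 2 of 12.5 nM ended that of the second. For Ube2a over Ube2b the ratio was 0.609 ± 0.032 at 200 nM and 0.959 ± 0.060 at 0 nM. It did not move in 1 direction over the doses, with 1.23 and 1.05 in the 50 nM libraries. On a linear dose scale its slope of -0.00325 was called (permutation test, adjusted p = 0.000717). Ube2d2a over Ube2d3 (slope -0.05, permutation p = 0.0969, adjusted p = 0.108) and Ube2q1 over Ube2q2 (slope 0.05, permutation p = 0.328, adjusted p = 0.328) did not pass the test. Without replicate 2 of 0 nM the slope of Ube2d2a over Ube2d3 was called (permutation test, adjusted p = 0.0139). The 2 untestable pairs contain Ube2d1 or Ube2e2, which had no counts.

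**Figure D4:**
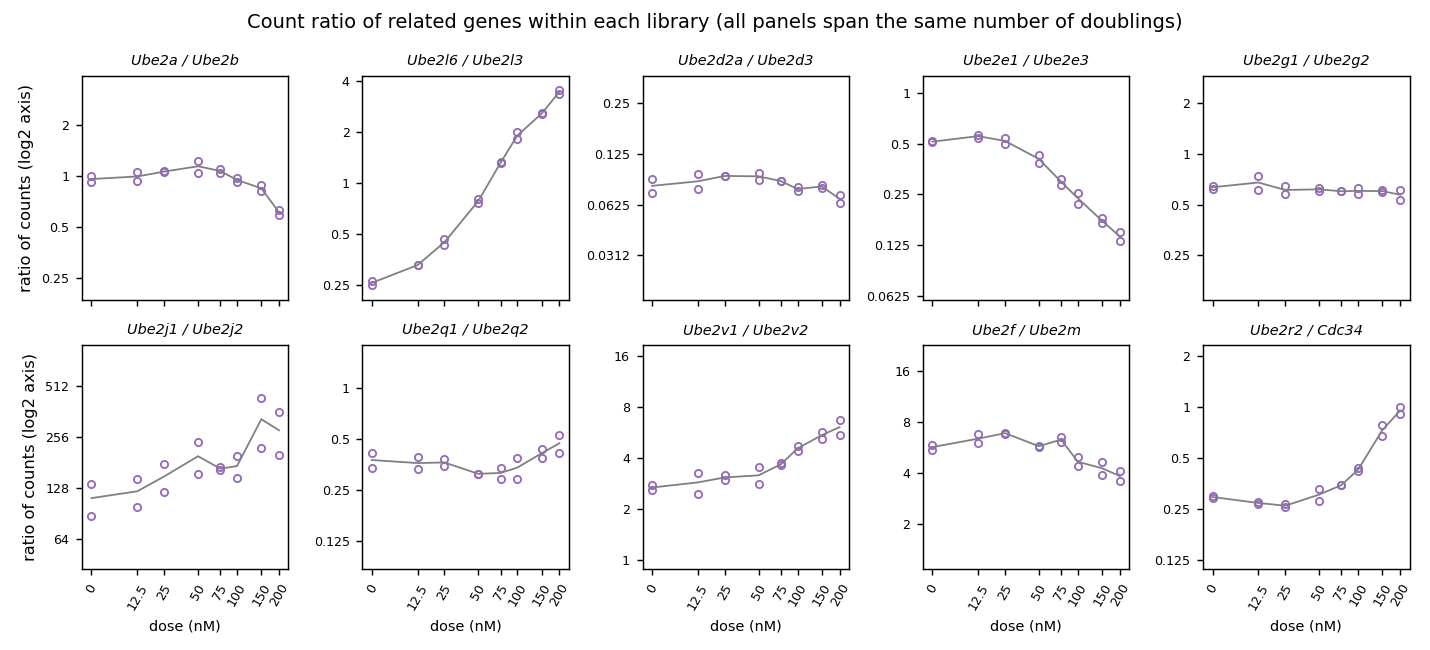
Count ratio of 10 pairs of related genes in each library (vertical, log2 axis, all panels spanning the same number of doublings) against dose (horizontal, spaced as log2(dose/12.5 + 1)); open circles are single libraries and the line joins the means of 2. Ube2l6 over Ube2l3 climbs through nearly the whole panel to 3.46, Ube2e1 over Ube2e3 drops to 0.141, and Ube2q1 over Ube2q2 scatters without a called slope.

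Levels of different genes can be set side by side only per length, here as CPM per kilobase of the longest basic protein-coding transcript. At 200 nM Ube2l6 ranked 1 of the 30 with 305.1 ± 0.86 CPM per kilobase, followed by Ube2d3 with 121.5 ± 15.98 and Ube2j1 with 105.6 ± 4.06. At 0 nM the leading level was that of Ube2d3 with 79.7 ± 3.76 CPM per kilobase, then Ube2g2 with 75.6 ± 0.94, and their SDs overlap. Ube2l6 ranked 14 at 0 nM with 24.4 CPM per kilobase. Ube2o ranked 11 at 200 nM (42.6 CPM per kilobase) and 25 at 0 nM (3.45), and Ube2h ranked 12 at 200 nM (30.1) and 28 at 0 nM (2.45). Ranks depended on the choice of length. With the union of all annotated exons, Ube2l6 still ranked 1 at 200 nM but ranked 8 at 0 nM. Ube2d3 then took rank 11 at 200 nM and rank 14 at 0 nM. Ube2o took rank 5 at 200 nM and 24 at 0 nM, and Ube2h rank 8 at 200 nM and 25 at 0 nM. Together the Ube2 genes took 0.256 ± 0.0086% of all counts at 200 nM and 0.197 ± 0.0030% at 0 nM, and their summed scaled level over the 8 doses was 1791, 1829, 1868, 2045, 2244, 2378, 2688 and 3038 CPM. Ube2l6 alone held 476 CPM of this sum at 200 nM and 38.1 CPM at 0 nM, so the rise is not spread evenly over the family.

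**Figure D5:**
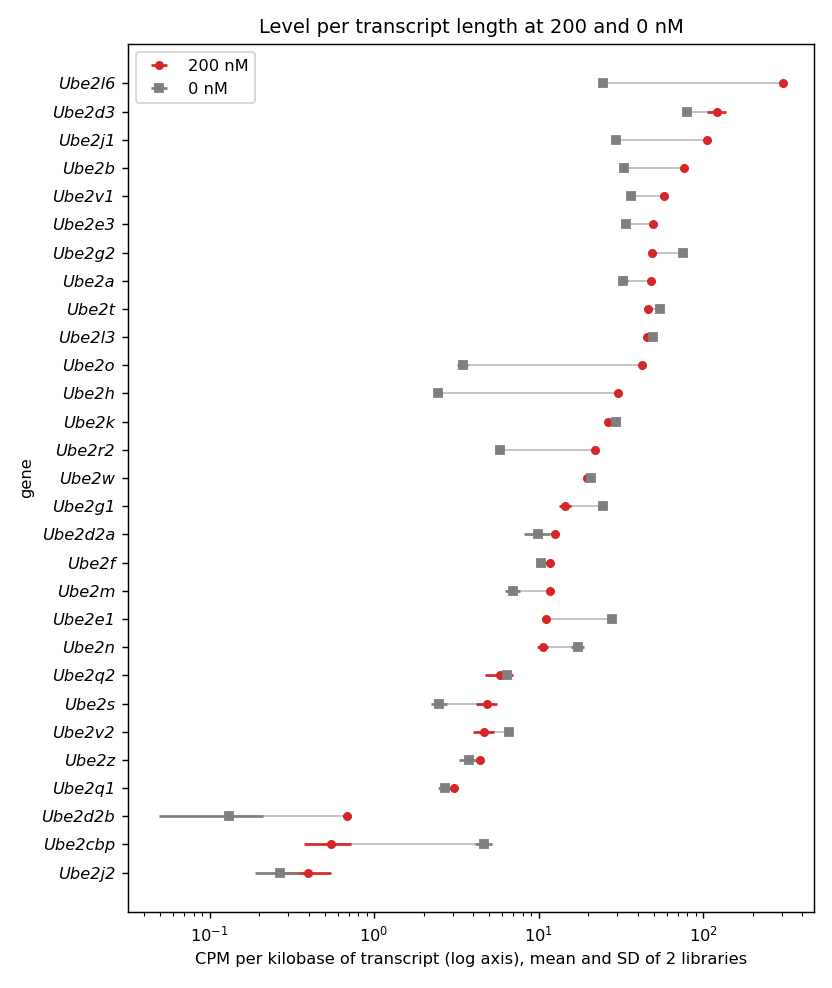
Level per kilobase of transcript (horizontal, log axis; mean and SD of 2 libraries) of 29 tested Ube2 genes (down the page), with red circles for 200 nM and grey squares for 0 nM. The widest gaps are those of Ube2l6, Ube2o, Ube2h and Ube2cbp, and Ube2l6 at 305.1 CPM per kilobase lies farthest to the right.

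The enzymes around the E2s in the relay were taken from lists chosen with earlier results of these data known, and their counts at 200 nM against 0 nM have the same backgrounds of 40.5% higher and 39.5% lower. Of 12 tested genes for ubiquitin and its relatives 6 were higher and 4 lower (median log2 fold change 0.05, against 0.02 for all genes). Sumo3 fell, with 125 CPM at 200 nM and 279 CPM at 0 nM (-1.17 ± 0.04, adjusted p = 2.97e-29), whereas the autophagy modifier Atg12 (1.04 ± 0.06, adjusted p = 8.32e-22) and the polyubiquitin gene Ubb (0.94 ± 0.06, adjusted p = 3.27e-19) rose. Of the 10 activating enzymes 4 were higher and 5 lower (median -0.02). Uba7, the E1 for ISG15, had 295 ± 11.2 CPM at 200 nM and 19.8 ± 3.52 CPM at 0 nM (3.89 ± 0.07, adjusted p = 9.43e-41), the same direction as its E2 Ube2l6. Isg15 itself had 5 and 6 counts at 200 nM and 1 and 0 at 0 nM, at most 6 in any library, and was not tested. Uba2, a subunit of the SUMO E1, had 481 CPM at 200 nM and 1083 CPM at 0 nM (-1.17 ± 0.03, adjusted p = 1.42e-35), and its partner Sae1 had 313 CPM at 200 nM and 533 CPM at 0 nM (-0.76 ± 0.03, adjusted p = 5.73e-25).

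Of the 8 conjugating enzymes and variants without the Ube2 name 5 were higher and 3 lower (median 0.30). Tsg101, an inactive E2 variant of the ESCRT machinery, was higher (1.20 ± 0.05, adjusted p = 9.53e-28), while the giant hybrid enzyme Birc6 (-0.50 ± 0.06, adjusted p = 1.51e-10) and the inactive variant Aktip (-1.50 ± 0.19, adjusted p = 2.05e-09) were lower. Among 11 subunits of CTLH, the ligase served by Ube2h, 7 were higher, 0 lower and 4 not called (median 0.64), and with library size alone 6 were higher and 3 lower. Ypel5 had 395 ± 3.95 CPM at 200 nM and 23.3 ± 1.08 CPM at 0 nM (4.08 ± 0.06, adjusted p = 1.01e-45). Ranbp10 had 178 ± 3.42 CPM at 200 nM and 20.6 ± 1.28 CPM at 0 nM (3.11 ± 0.07, adjusted p = 2.14e-38), and Wdr26 was 1.80 ± 0.07 higher on the log2 scale (adjusted p = 1.82e-26). Of 17 tested ligases and adaptors of the endoplasmic reticulum, the partners of Ube2j1 and Ube2g2, 12 were higher and 1 lower (median 0.57; 9 and 4 with library size alone). The derlin Derl1 (1.10 ± 0.04), the Ube2g2 recruiter Aup1 (1.18 ± 0.04) and the ligase Rnf139 (1.44 ± 0.06) led that list.

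The cullin, RING and NEDD8 ligase genes leaned the other way, with 4 of 15 higher and 9 lower (median -0.35; 1 and 13 with library size alone). Dcun1d4 (-2.32 ± 0.12) and Dcun1d2 (-1.66 ± 0.11), which help transfer NEDD8 to cullins, and the RING subunit Rnf7 (-0.88 ± 0.06) had the smallest adjusted p. All 16 anaphase promoting complex genes were called, 9 higher and 7 lower (median 0.20), among them Anapc1 (-0.85 ± 0.04), Anapc5 (0.63 ± 0.03) and Anapc13 (0.91 ± 0.07). SUMO ligases and proteases divided into 6 higher and 3 lower of 12 (median 0.23), with the protease Senp2 (1.57 ± 0.08) and the ligase Pias1 (0.74 ± 0.07) higher and Senp3 (-0.59 ± 0.07) lower. The ligases and substrates of RAD6, UBC13 and the Fanconi pathway gave 4 higher and 5 lower of 13 (median -0.03), with Pcna (-1.18 ± 0.05) and Fancd2 (-0.61 ± 0.07) lower and Rnf20 (0.45 ± 0.05), the histone H2B ligase, higher. With library size alone 0 of that list were higher and 10 lower. Deubiquitinating enzymes, which reverse conjugation, were 11 higher and 14 lower of 31 (median -0.06), among them Usp10 (-1.97 ± 0.05), Usp4 (1.11 ± 0.04) and Uchl5 (-1.09 ± 0.04).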

How the data were processed

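RNA was extracted from G1E-ER4 cells in Qiagen RLT buffer and prepared by Smart-seq2, per the labels' protocols, a method without strand or molecular identifiers. The authors deposited read counts per gene symbol for 16 libraries, and the submitters' processing notes name bcl2fastq, STAR and mm10 without versions. How reads were assigned to genes is not given in the sources used. Reads of close paralogs or of overlapping genes may thus be split or merged. Amplified reads are not independent molecules, so limits on counts of 0 cover counting error alone.

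Fold changes came from edgeR 4.0.16 (R 4.3.3): filterByExpr by dose, TMM, robust quasi-likelihood fit on all 16 libraries with dose as a factor and no replicate block, and Benjamini-Hochberg adjustment over all tested genes within each contrast, with calls under 0.05. Each ± beside a log2 fold change is a standard error, the size of the change divided by the square root of F. With 2 replicates a dose, the spread of a single gene is estimated mostly from the other doses and genes. Ratios of paralogs used a prior count of 0.5 and half-maximal doses a prior count of 2. The scripts were tested on simulated data. Positions and lengths came from GENCODE M21 (GRCm38, the same assembly as mm10), promoters from RefSeq GRCm38.p6. Coding identity is the share of matching columns in a global alignment.

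The Ube2 genes and all lists were chosen with earlier results of these data known. Single-library values were given for called members with at least 20 CPM and the 6 highest or 6 lowest fold changes; of each pathway list, the 3 genes with the smallest adjusted p were named. A member that this rule names is not reported here, though it stays in the counts. Alternatives were library size alone, RLE factors, DESeq2 1.42.0, no filter, a fit to the compared doses, a replicate block and leaving out each library.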

Additional observations from a re-analysis of the deposited data

How the results depend on the processing

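With library size alone, Ube2 genes lower than at 0 nM numbered 2 at 50 nM, 7 at 75 nM, 13 at 100 nM and 13 at 150 nM, against 1, 3, 7 and 8 with TMM, and 1 (Ube2d2a) peaked. Ube2f (-0.19), Ube2z (-0.17), Ube2d2a (-0.0421) and Ube2q1 (-0.20) then changed sign at 200 nM. List counts moved to 7 lower for ubiquitin and its relatives, 3 higher for E2s without the Ube2 name, 3 lower for CTLH, 5 higher for the anaphase promoting complex, 1 higher for cullins, 3 higher and 5 lower for SUMO, 4 lower for the endoplasmic reticulum, 0 higher and 10 lower for RAD6 and Fanconi, and 6 higher for deubiquitinating enzymes. The same setting moved the median of all tested genes to -0.36, against 0.02 with TMM. DESeq2 gave 0 lower genes at 50 nM, and without a filter Ube2d2a peaked at 75 nM, 1 gene. On a linear dose scale the 2 slopes not called on the log2 scale, Ube2d2a over Ube2d3 (-0.00157) and Ube2q1 over Ube2q2 (0.00174), also passed the permutation test. The cause was not tested. The family's share of counts was 0.304% at 200 nM and 0.179% at 0 nM after TMM scaling, and 0.217% at 200 nM and 0.163% at 0 nM without Ube2d3. Leaving out 1 library gave 1 to 2 genes higher at 25 nM (2 without replicate 1 of 0 nM), 5 to 9 higher and 0 to 1 lower at 50 nM, and 14 to 15 higher and 8 to 11 lower at 200 nM. Slopes then ran between -0.145 and -0.0735 for Ube2a over Ube2b, -0.0482 and -0.0272 for Ube2g1 over Ube2g2, and -0.0866 and -0.0319 for Ube2d2a over Ube2d3. Ube2q2 became 0.0489 without replicate 1 of 200 nM and was called lower (-0.36) without replicate 2. Of 210 member fold changes under settings other than leaving out a library, 203 kept direction and call, and of 120 with a library left out 111 did. Same-numbered replicates showed little shared deviation: its correlation between doses was -0.058 to 0.096 (median 0.002) over 28 pairs of doses. Such values cannot tell whether the samples were paired when they were made. A replicate block in edgeR left 15 genes higher and 10 lower at 200 nM, and permuting within replicate numbers gave an adjusted p of 0.0512 for Ube2a over Ube2b (slope -0.11, permutation test). Depth limits Ube2d2b, Ube2j2 and Ube2cbp at 200 nM most.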
